A study of Chenopodium quinoa with 15 samples.

Results

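Quinoa (Chenopodium quinoa) is a salt-tolerant crop of the amaranth family, and the genes described here are annotated as the enzymes that build glycine betaine in that family. The members were chosen by their database titles: every gene whose title names phosphoethanolamine N-methyltransferase (PEAMT), choline monooxygenase (CMO) or betaine aldehyde dehydrogenase (BADH). This rule gave 10 of the 58522 annotated genes, of which 4 were titled PEAMT, 4 CMO and 2 BADH. RNA of the NL-6 variety was sequenced from 5 groups with 3 libraries each. Leaf and NaCl leaf libraries came from seedlings of 14 days grown on soil, with all leaves of 4 seedlings pooled per replicate, and NaCl leaf seedlings spent 8 h under a 400 mM NaCl solution before harvest. The labels call the leaf libraries untreated and also say that controls of the salt treatment received water. Each root library held 8 roots, from seedlings aged 2 days by the labels or 3 days, in the dark, by the methods of the study. Stamen libraries pooled more than 80 stamens and pistil libraries more than 30 pistils from newly opened flowers of plants of about 7 weeks, so contrasts between tissues also differ in age and growth.

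Glycine betaine is a small, neutral molecule that many plants and bacteria gather in the cytoplasm and in chloroplasts under salt or drought, where it acts as a compatible solute that balances the osmotic pressure of salt stored in the vacuole. Plants of this family make it from choline by successive oxidations inside the chloroplast. PEAMT, a cytosolic enzyme, adds methyl groups from S-adenosylmethionine to phosphoethanolamine and so commits the carbon to choline. CMO, a stromal iron-sulfur enzyme that takes its electrons from ferredoxin, oxidises choline to betaine aldehyde. BADH then oxidises the aldehyde to glycine betaine with a pyridine nucleotide as cofactor. Much of this route was worked out in spinach and sugar beet, relatives of quinoa.

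The members lie on 7 chromosomes of the NL-6 genome and fall into 5 pairs, because 5 database proteins were the best match of 2 members each. For PEAMT, CqNL-6_017786 (chromosome 5, 41193256 to 41201843) and CqNL-6_056988 (chromosome 2 from 31416825 to 31425352) shared a match from the saltbush Atriplex canescens and a cytoplasm term. The other PEAMT copies, CqNL-6_005029 (chromosome 2 from 77241806 to 77245900) and CqNL-6_021240 (chromosome 9 from 2144444 to 2155469), shared a match from beet. For CMO, CqNL-6_054275 (chromosome 1 from 27019198 to 27025388) and CqNL-6_028838 (chromosome 7 from 49422143 to 49428003) shared a match from Atriplex amnicola and were the members with the terms for glycine betaine synthesis and chloroplast stroma. The CMO titles of CqNL-6_019436 (chromosome 14 from 16347662 to 16356363) and CqNL-6_035439 (chromosome 8 from 64393761 to 64403936) came from a beet protein called CMO chloroplastic-like. The BADH copies, CqNL-6_005716 (chromosome 2 from 6357557 to 6363272) and CqNL-6_022231 (chromosome 9 from 54754927 to 54760520), shared a match from quinoa itself. The genes of each pair lay on different chromosomes, and no member overlapped another gene. The coordinates are whole genes with their introns, and the deposited lengths used below are 1774 to 2777 bases. The sources used here do not say how reads that match several places were counted, so the division of reads within a pair is less certain than the sum of the pair.

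Counted reads per library were 12499775 to 17019602. Levels are given as CPM, the counts scaled to a common library total with TMM correction for composition over the 15 libraries, and divided by the gene length in kilobases so that copies can be compared. This value, in CPM per kilobase, is called the level. The 19 leaf markers (Rubisco small subunits and chlorophyll a-b binding proteins) summed to 37342 to 40827 CPM in leaf, 25829 to 30238 in NaCl leaf, 8.10 to 9.35 in root, 55.8 to 71.7 in stamen and, lastly, 292 to 421 in pistil, so that NaCl leaf lay below leaf in every library. The 21 pollen genes summed to 29475 to 31193 CPM in stamen and to at most 1263 CPM in a library of another group. The 4 root genes (casparian strip membrane proteins) reached 43.7 to 59.1 CPM in root and at most 4.07 elsewhere, and the 2 CRABS CLAW genes 91.8 to 104 CPM in pistil and at most 0.506 elsewhere. Of these genes, 2 leaf and 2 pollen markers had no read in their own tissue. In such pooled organs, fewer cells of a type and less RNA per cell cannot be told apart.

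To see how salt moved the pathway, NaCl leaf was compared with leaf. All 3 steps contained copies that rose, from CqNL-6_019436 (CMO, 1.58-fold) to CqNL-6_017786 (PEAMT, 23.1-fold). Of the 10 members, all of which passed the read filter, 8 rose and 0 fell at an adjusted p under 0.05 (quasi-likelihood test of edgeR, Benjamini-Hochberg adjusted over 29201 genes). Over all genes tested, 24.0% rose and 22.8% fell. The split of all calls moved from 51.3% higher to 70.2% higher when libraries were scaled by their total instead of TMM, under which 9 members rose and 0 fell and the median log2 fold change of all genes went from 0.04 to 0.29. The median log2 fold change was 2.01 over the 10 members. By enzyme it was 3.41 over the 4 PEAMT copies, 1.62 over the 4 CMO copies and 0.93 over the 2 BADH copies. The leaf markers, which were lower in NaCl leaf, moved with these rises in the opposite direction, and their part in the result was not tested.

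Among the PEAMT copies, CqNL-6_017786 had a level of 53.7, 39.5 and 43.9 in the leaf libraries and 1058, 1369 and 656 in the NaCl leaf libraries. It was thus 23.1-fold higher (log2 fold change 4.53 ± 0.28, adjusted p = 2.28e-05), with the lowest NaCl library far above the highest leaf library. CqNL-6_056988, its partner, had the highest leaf level of the PEAMT copies, 63.6, 60.7 and 65.2, and reached 868, 1029.8 and 681, a 14.0-fold rise (3.80 ± 0.17, adjusted p = 9.41e-06). In both genes the third NaCl replicate was the lowest and the second the highest, and neither gene's groups overlapped. CqNL-6_005029 rose 8.12-fold from a lower level, 13.2, 14.3 and 17.3 in leaf against 106, 154 and 93.6 in NaCl leaf (3.02 ± 0.21, adjusted p = 3.78e-05). CqNL-6_021240 moved least, from 19.9, 20.8 and 23.0 to 35.9, 39.5 and 39.6 (1.85-fold, 0.89 ± 0.11, adjusted p = 0.000338). The fold thus ranged widely among genes with the same title. By size of the log2 fold change, CqNL-6_017786 stood at position 213, CqNL-6_056988 at 337 and CqNL-6_005029 at 495 among the 7007 genes that rose.

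The CMO copies split by pair. CqNL-6_054275 had a level of 43.9, 37.6 and 39.8 in leaf and 774, 808 and 604 in NaCl leaf, an 18.5-fold rise (log2 fold change 4.21 ± 0.16, adjusted p = 5.38e-06), at position 260 among the genes that rose. CqNL-6_028838, with the same database match, went from 24.6, 27.0 and 23.8 to 185, 132 and 125 (log2 fold change 2.59 ± 0.17, adjusted p = 3.26e-05). Both were well apart between the groups in every library. The CMO-like copies stayed low: CqNL-6_019436 had 4.44, 4.79 and 5.53 in leaf and 8.70, 7.14 and 6.87 in NaCl leaf (1.58-fold, 0.66 ± 0.15, adjusted p = 0.00705). CqNL-6_035439 had 1.00, 0.793 and 1.35 in leaf and 1.16, 1.13 and 0.832 in NaCl leaf, where the groups overlapped and no change was detected (0.03 ± 0.31, adjusted p = 0.951; 95% interval of the log2 fold change -0.67 to 0.73). It rested on 84 reads over the leaf libraries and 92 over the NaCl leaf libraries, so a change within that interval was not detectable at this depth.

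For BADH, the last step, 1 of the 2 copies passed the test. CqNL-6_005716 had a level of 25.0, 24.6 and 30.1 in leaf and 53.5, 94.2 and 62.9 in NaCl leaf, a 2.71-fold rise (log2 fold change 1.44 ± 0.21, adjusted p = 0.000564). CqNL-6_022231, the more abundant BADH copy in leaf, had 77.3, 71.3 and 88.1 in leaf and 78.6, 106 and 126 in NaCl leaf (1.35-fold, 0.43 ± 0.17, adjusted p = 0.0672; 95% interval of the log2 fold change 0.04 to 0.82). Its first NaCl replicate lay within the range of leaf, and the other two lay above it. Without that replicate the gene passed (0.59, adjusted p = 0.012), as it did when scaled by the total library size (0.68, adjusted p = 0.00697).

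**Figure D1:**
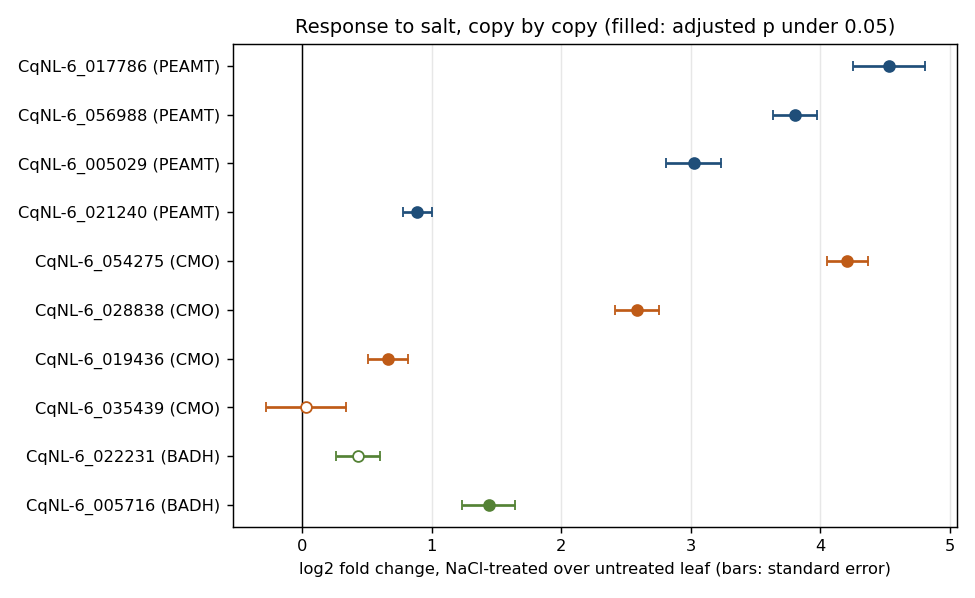
Log2 fold change of each of the 10 genes in NaCl leaf over leaf (x axis), with 1 gene per line, coloured by enzyme; bars are standard errors of the fit on 3 against 3 libraries, and filled points passed the test. CqNL-6_017786 and CqNL-6_054275 lie farthest right at 4.53 and 4.21, while CqNL-6_022231 and CqNL-6_035439 are open points.

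Summed over its copies, PEAMT had a level of 145 ± 8.40 in leaf and 2044 ± 562 in NaCl leaf (SD, n = 3), 14.1 times as much. The CMO sum went from 71.5 ± 2.09 to 884 ± 129 (12.4 times), and the BADH sum from 105 ± 11.5 to 174 ± 36.5 (1.65 times). None of these sums overlapped between leaf and NaCl leaf. The order of the enzymes changed with it: in leaf the means ran PEAMT, BADH, CMO, and in NaCl leaf PEAMT, CMO, BADH.

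The mix of copies within each enzyme shifted in salt. CqNL-6_017786 made up 31.4% ± 3.70 of the PEAMT sum in leaf and 49.5% ± 4.34 in NaCl leaf (SD, n = 3), while CqNL-6_056988 held 43.6% ± 1.27 and 42.7% ± 3.37, which overlapped (exact two-sided permutation test, p = 0.7). CqNL-6_021240 went from 14.7% ± 1.25 to 1.98% ± 0.622 and CqNL-6_005029 from 10.3% ± 1.43 to 5.82% ± 0.623, although both genes rose. For CMO, CqNL-6_054275 went from 56.5% ± 2.88 to 82.4% ± 2.67 and CqNL-6_028838 from 35.2% ± 2.84 to 16.6% ± 2.59. The CMO-like copies went from 6.90% ± 0.919 to 0.862% ± 0.0958 (CqNL-6_019436) and from 1.47% ± 0.401 to 0.117% ± 0.00342 (CqNL-6_035439). For BADH, CqNL-6_005716 went from 25.2% ± 0.642 to 40.3% ± 6.82, and CqNL-6_022231 held the rest. The shares of 9 of the 10 copies did not overlap between the groups. Each of these had p = 0.1 in the exact two-sided permutation test (adjusted p = 0.111 over 10 comparisons), and 0.1 is the smallest p that 3 against 3 libraries allow, so no share could pass 0.05.

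**Figure D2:**
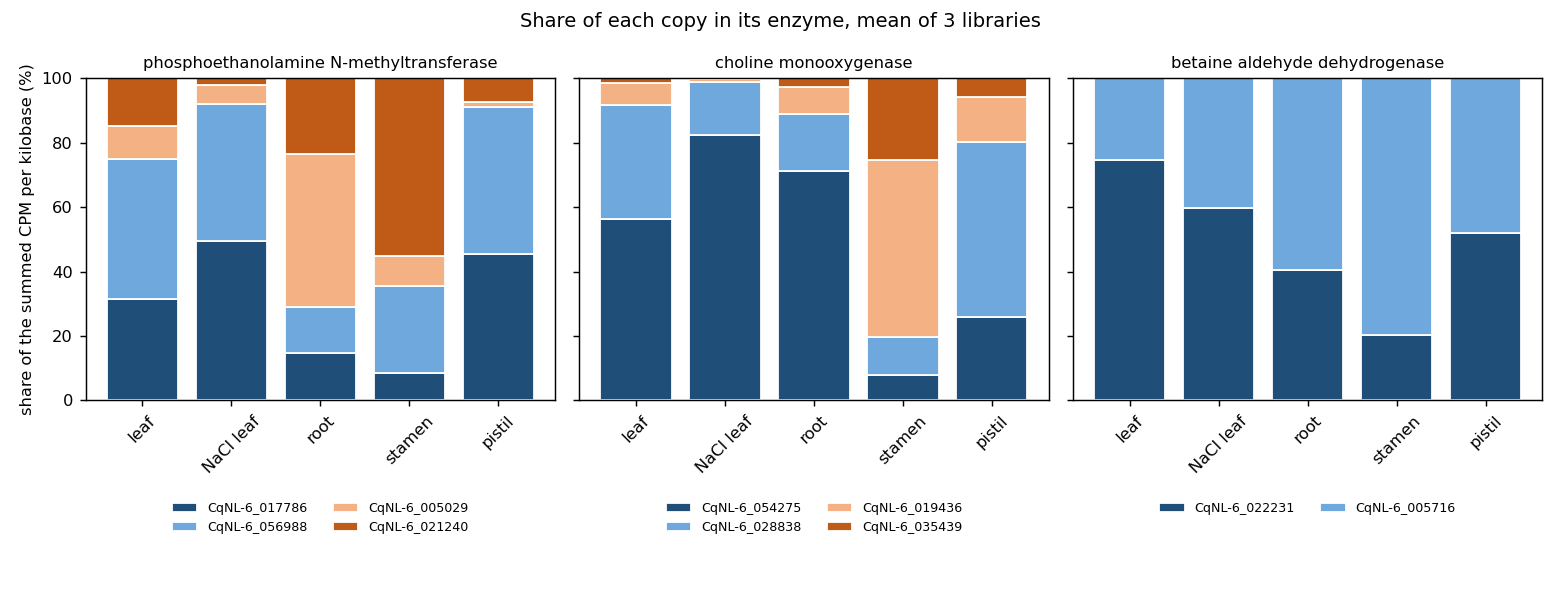
Share of each copy in the summed level of its enzyme (y axis, percent, mean of 3 libraries) in the 5 groups (x axis), with 1 panel per enzyme and 1 colour per copy. CqNL-6_054275 fills 82.4% of the CMO bar in NaCl leaf and 7.84% in stamen, and the BADH bar passes from mostly CqNL-6_022231 in leaf to mostly CqNL-6_005716 in stamen.

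The levels of the copies were then described over the tissues without salt, in a fit of the 12 untreated libraries (35954 genes tested). A member was called highest in a tissue if it passed against all other tissues by 1 or more on the log2 scale. In root these were 2 of the 10 members, CqNL-6_005029 and CqNL-6_005716, where 10.4% of all genes tested were called highest in root. So few genes cannot be set apart from that share. In leaf, stamen and pistil 0 members were called, against 11.1%, 20.0% and 6.03% of all genes. By total library size 3 members were highest in root and 3 in pistil. With no minimum fold, 1 member was also highest in leaf (CqNL-6_022231), 1 in stamen (CqNL-6_021240) and 1 in pistil (CqNL-6_017786). No share of all genes is given for these alternatives, so their counts have no background here. All genes moved with the total library size: their median log2 fold change for leaf over pistil went from -0.14 to -1.20.

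Stamen was the poorest tissue for CMO and BADH. The CMO sum was 6.78 ± 0.747 in stamen against 71.5 ± 2.09 in leaf, 55.3 ± 9.25 in root and 43.0 ± 8.29 in pistil, and the BADH sum 6.87 ± 0.603 against 105 ± 11.5, 113 ± 13.7 and 27.1 ± 2.42. By this scaling the PEAMT sum differed less: 93.1 ± 14.5 in stamen, 145 ± 8.40 in leaf, 161 ± 3.45 in root and 159 ± 40.1 in pistil. These sums depend on the TMM factors, which were 0.474 to 0.497 in stamen, 0.839 to 0.861 in leaf and 1.69 to 1.73 in pistil. Scaled by total library size alone, stamen would lie lower and pistil higher against leaf, and no sum by that scaling is given here. Of the 10 members, 8 were higher and 2 lower in leaf than in stamen (41.6% and 38.4% of all genes), 6 higher and 1 lower in root than in stamen (43.2% and 38.3%), and 2 higher and 7 lower in stamen than in pistil (37.0% and 42.5%). Between the other tissues, 4 were higher and 3 lower in leaf than in root (32.6% and 36.0%), 5 higher and 2 lower in leaf than in pistil (31.7% and 37.8%), and 5 higher and 5 lower in root than in pistil (33.8% and 40.9%). By total library size these counts were 2 and 6, 3 and 5, and 5 and 5. Among all genes called in either direction, the percent called higher went from 47.6% to 25.4%, from 45.6% to 19.0% and from 45.3% to 33.8%. Scaling mattered for stamen: by total library size the members counted 8 higher and 1 lower, 10 higher and 0 lower, and 1 higher and 8 lower in these contrasts. Among all genes called in either direction, the percent called higher then went from 52.0% to 65.1%, from 53.0% to 77.0% and from 46.5% to 18.8%. The median log2 fold change of all genes went from 0.06 to 0.85, from 0.19 to 1.71 and from -0.19 to -2.02.

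The leading PEAMT copy differed between root, stamen and the other tissues. CqNL-6_005029 had a level of 73.9, 75.6 and 81.0 in root, 13.2, 14.3 and 17.3 in leaf, 10.3, 8.21 and 7.07 in stamen and, lastly, 2.20, 2.37 and 2.74 in pistil, and all neighbours in this order differed (root over leaf 5.02-fold, adjusted p = 1.78e-11), except that stamen and pistil were equal by total library size. It supplied 47.7% ± 2.19 of the PEAMT sum in root and 1.57% ± 0.226 in pistil. Its partner CqNL-6_021240 had its highest level in stamen, with 52.8, 48.2 and 50.0 in stamen, 34.1, 38.0 and 41.0 in root, 19.9, 20.8 and 23.0 in leaf and 11.8, 10.6 and 10.9 in pistil. All neighbours in this order passed the test too, but stamen over root (root over stamen -0.45 ± 0.11, adjusted p = 0.000996) and leaf over pistil (0.99 ± 0.11, adjusted p = 2.78e-07) turned around when scaled by the total library size (1.09 and -0.07). Without the first stamen replicate the root over stamen value was -0.28 (adjusted p = 0.0412).

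The pair with the saltbush match was highest in pistil and leaf among the untreated tissues. CqNL-6_017786 had 51.4, 76.7 and 89.7 in pistil, 53.7, 39.5 and 43.9 in leaf, 25.2, 25.4 and 21.0 in root and 6.51, 11.3 and 6.40 in stamen. Pistil and leaf overlapped, and the difference passed (-0.62 ± 0.20, adjusted p = 0.00907) but did not without the second leaf replicate (adjusted p = 0.0538) or without the third pistil replicate (adjusted p = 0.0627). Leaf over root (0.97 ± 0.20, adjusted p = 0.000281) did not pass by total library size (adjusted p = 0.31). CqNL-6_056988 had 56.4, 63.9 and 98.2 in pistil, 63.6, 60.7 and 65.2 in leaf, 24.5, 25.6 and 18.6 in root and 17.4, 41.9 and 19.2 in stamen. For this gene pistil and leaf did not differ beyond their spread (-0.16 ± 0.25, adjusted p = 0.597), nor did stamen and root (-0.23 ± 0.26, adjusted p = 0.434). Both depended on the scaling. By total library size alone, pistil (95.9, 110 and 166 per kilobase) lay above leaf (53.3, 52.3 and 55.1) without overlap. Root (34.1, 35.7 and 25.1) then lay above stamen (8.39, 20.9 and 9.10), also without overlap. The second stamen replicate was the highest for this gene, and without it the root over stamen value turned to 0.43 (adjusted p = 0.0634).

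The CMO pair with the saltbush match was lowest in stamen. CqNL-6_054275 had levels of 0.786, 0.564 and 0.281 in stamen, resting on 20 reads over the 3 libraries, against 43.9, 37.6 and 39.8 in leaf, 32.0, 42.2 and 44.0 in root and 6.96, 13.3 and 13.9 in pistil. Leaf and root overlapped and did not differ beyond their spread (0.07 ± 0.19, adjusted p = 0.77; 95% interval of the log2 fold change -0.33 to 0.47), and by total library size root was the higher (-0.66). Pistil lay 19.7-fold above stamen (-4.30 ± 0.36, adjusted p = 3.23e-09 for stamen over pistil). CqNL-6_028838 had 1.28, 0.819 and 0.380 in stamen (30 reads), 24.6, 27.0 and 23.8 in leaf, 6.80, 13.4 and 9.44 in root and 19.0, 27.6 and 23.3 in pistil. Leaf and pistil did not differ beyond their spread (0.16 ± 0.19, adjusted p = 0.474), and leaf was 2.60-fold above root (1.38 ± 0.20, adjusted p = 5.78e-06). The CMO-like copies stayed low in all tissues: CqNL-6_019436 had mean levels between 3.69 (stamen) and 5.95 (pistil) over the tissues, and CqNL-6_035439 between 1.05 (leaf) and 2.36 (pistil). Some of their calls between tissues depended on single libraries or on the fit: CqNL-6_019436 passed for leaf over stamen (0.43 ± 0.18, adjusted p = 0.0349) but not without the third leaf replicate (adjusted p = 0.121) or the first stamen replicate (adjusted p = 0.0557). It did not pass with DESeq2 (adjusted p = 0.0582) or in the fit of all 15 libraries (adjusted p = 0.0764) either. CqNL-6_035439 passed for pistil over leaf (leaf over pistil -1.12 ± 0.24, adjusted p = 0.000386) under all alternatives run. In stamen, where the saltbush-matched copies were low, CqNL-6_019436 made up 55.0% ± 10.9 of the CMO sum.

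The BADH copies leaned to different organs. CqNL-6_005716 had a level of 61.7, 62.7 and 78.0 in root, 25.0, 24.6 and 30.1 in leaf, 12.6, 13.6 and 12.7 in pistil and, lastly, 5.05, 6.10 and 5.21 in stamen, with all neighbours in this order apart (root over leaf 2.48-fold, adjusted p = 1.91e-08), although leaf over pistil did not pass by total library size (adjusted p = 0.859). CqNL-6_022231 had 77.3, 71.3 and 88.1 in leaf, 44.5, 41.6 and 50.9 in root, 11.8, 14.1 and 16.4 in pistil and, lastly, 2.22, 1.06 and 0.971 in stamen. Leaf over root was 1.77-fold for it (0.82 ± 0.15, adjusted p = 9.49e-05), a call that was lost when scaled by the total library size (0.09, adjusted p = 0.592).

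**Figure D3:**
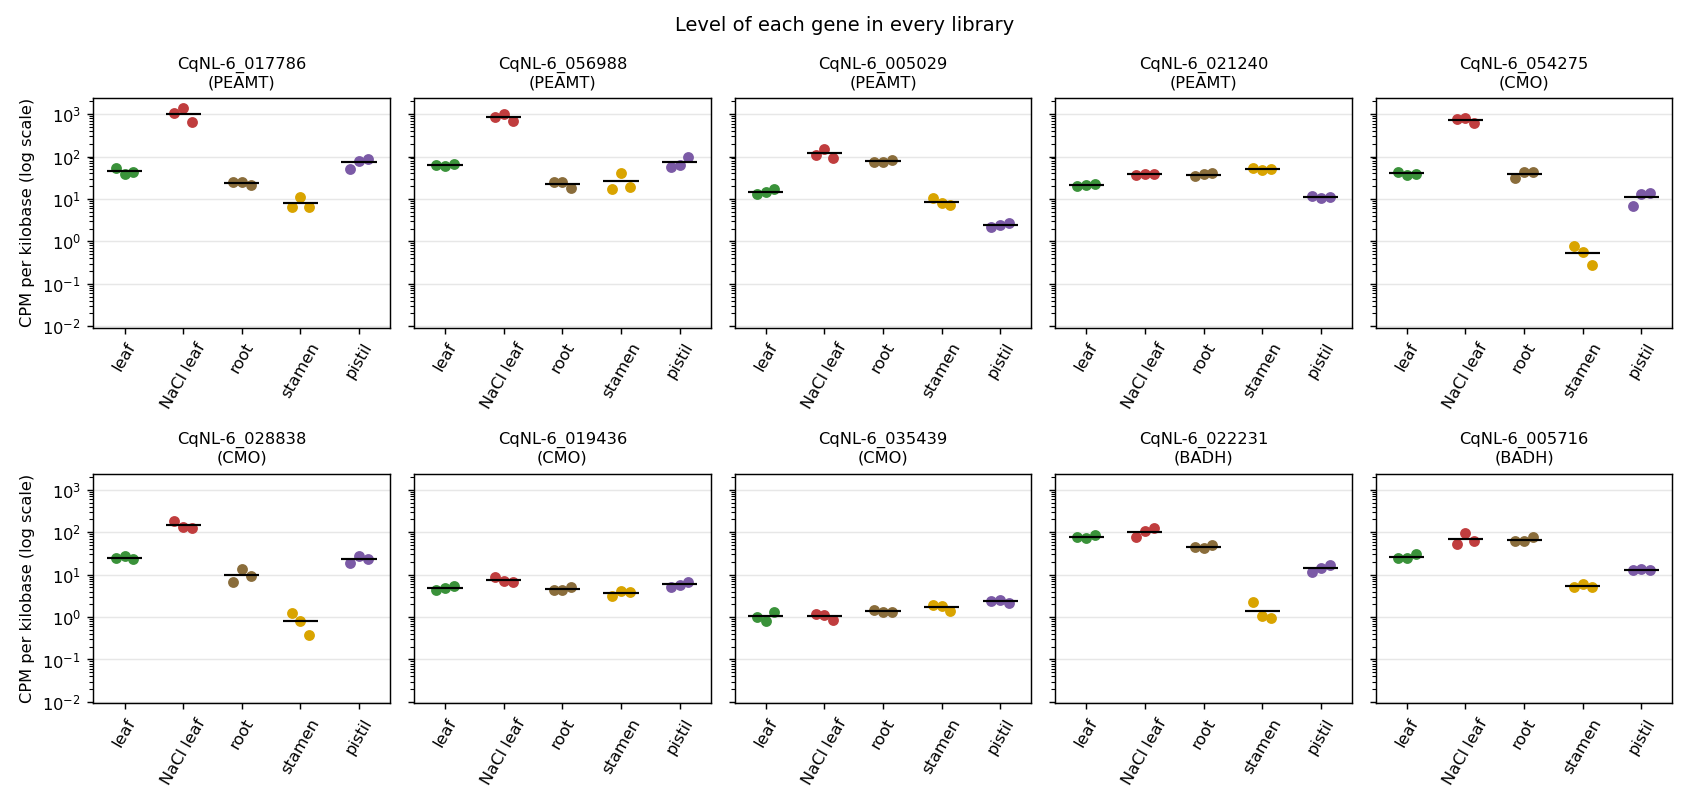
Level of each gene (y axis, CPM per kilobase, log scale) in the 15 libraries, 1 panel per gene and 1 colour per group; points are libraries and lines the means of 3. The NaCl leaf points of CqNL-6_017786, CqNL-6_056988 and CqNL-6_054275 stand above all other points, and the stamen points of CqNL-6_054275 and CqNL-6_028838 are near 1 or below.

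Placed among the tissues in a fit of all 15 libraries, NaCl leaf had the highest mean level for 8 of the 10 copies. No share over all genes was computed for this ranking of means. The lead over the next group did not pass for CqNL-6_005716 (over root) or CqNL-6_019436 (over pistil, adjusted p = 0.0505). Nor did it pass for CqNL-6_022231 (over leaf, adjusted p = 0.0672 in the salt fit). By total library size root was the higher for CqNL-6_005716, and pistil for CqNL-6_019436. Against root, 7 of the 10 members were higher and 0 lower (30.6% and 33.3% of 36293 genes tested). Against stamen, 8 were higher and 2 lower (41.6% and 36.6%), and against pistil 8 higher and 1 lower (31.1% and 35.0%). By total library size the members counted 5 higher and 2 lower against root, 9 and 0 against stamen, and 8 and 2 against pistil. Among all genes called in either direction, the percent called higher went from 47.9% to 32.5%, from 53.2% to 72.5% and from 47.1% to 23.4%. CqNL-6_017786 was 42.7-fold above root and 14.2-fold above pistil, and CqNL-6_054275 18.4-fold and 64.1-fold. The root copies came close to salt-treated leaf: CqNL-6_005716 did not differ detectably between NaCl leaf and root (0.05 ± 0.17, adjusted p = 0.837; 95% interval -0.31 to 0.40), and CqNL-6_005029 was 1.53-fold higher in NaCl leaf (adjusted p = 0.00355), a call lost by total library size (adjusted p = 0.283). Without the second NaCl replicate the latter log2 fold change went from 0.61 to 0.40 (adjusted p = 0.0216).

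The balance within each pair, as the log2 ratio of the levels of the genes that share a match, differed in sign between groups for 4 of the 5 pairs. CqNL-6_005029 over CqNL-6_021240 was -0.52 ± 0.09 in leaf, 1.59 ± 0.36 in NaCl leaf, 1.03 ± 0.07 in root, -2.58 ± 0.23 in stamen and, lastly, -2.19 ± 0.21 in pistil (SD, n = 3). This beet-matched PEAMT pair therefore turned from the second gene to the first between leaf and NaCl leaf. CqNL-6_028838 over CqNL-6_054275 was -0.68 ± 0.18 in leaf, -2.32 ± 0.28 in NaCl leaf, -2.04 ± 0.33 in root, 0.56 ± 0.13 in stamen and, lastly, 1.09 ± 0.35 in pistil. The first CMO gene thus led in pistil and the second in leaf, NaCl leaf and root. In stamen this ratio rested on 30 and 20 reads over the 3 libraries, too few to call a lead. CqNL-6_005716 over CqNL-6_022231 ran from -1.57 ± 0.05 in leaf and -0.58 ± 0.41 in NaCl leaf to 0.56 ± 0.08 in root and 2.04 ± 0.75 in stamen, with -0.11 ± 0.25 in pistil. CqNL-6_017786 over CqNL-6_056988 was -0.48 ± 0.20 in leaf, 0.21 ± 0.24 in NaCl leaf, 0.07 ± 0.10 in root and -1.63 ± 0.24 in stamen, and in pistil both levels were alike on average, with an SD of 0.23. In NaCl leaf and root its ratio lay within about 1 SD of equal levels. CqNL-6_019436 led CqNL-6_035439 in all groups, from 1.10 ± 0.40 in stamen to 2.87 ± 0.19 in NaCl leaf. These ratios carry no test.

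**Figure D4:**
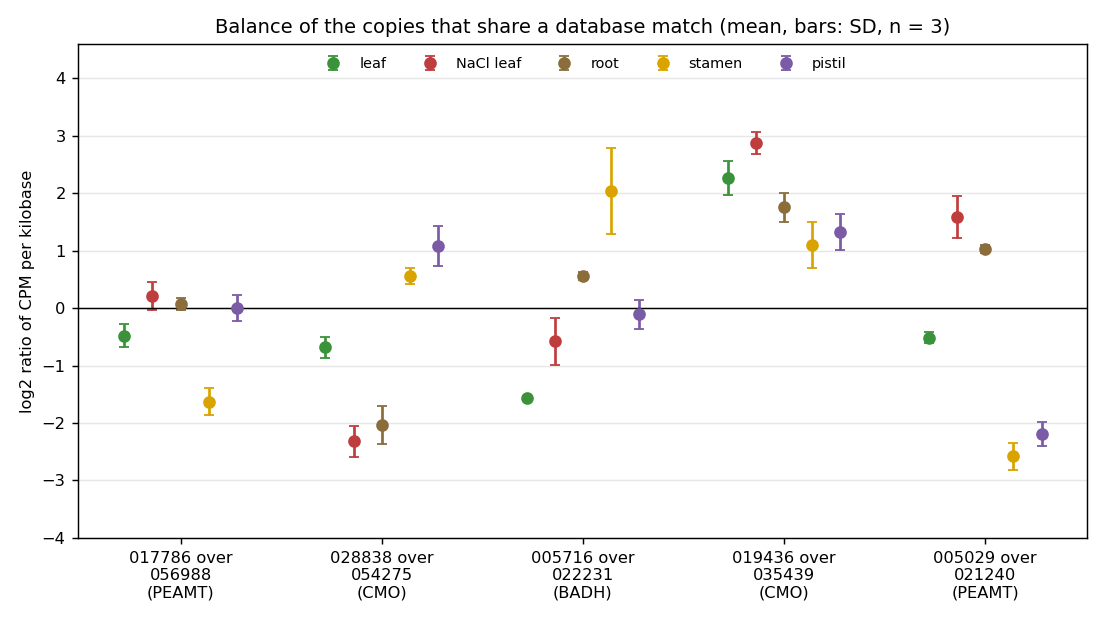
Log2 ratio of the levels (CPM per kilobase, y axis) of the genes of each pair that shares a database match (x axis, gene names shortened to their last digits), by group; points are means of 3 libraries, bars SD, and the line at 0 marks equal levels. The ratio of CqNL-6_028838 over CqNL-6_054275 runs from -2.32 in NaCl leaf to 1.09 in pistil.

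Outside the rule, 2 genes carried the KEGG number of BADH and the term for glycine betaine synthesis but were titled as hypothetical proteins of spinach. They lay beside the BADH copies. CqNL-6_005715 (chromosome 2, 6364301 to 6370885) began 1028 bases from CqNL-6_005716 with 0 genes between, and CqNL-6_022228 (chromosome 9, 54731057 to 54737658) lay 17268 bases from CqNL-6_022231 with 2 genes between. CqNL-6_005715 had levels of 22.2, 20.5 and 21.7 in leaf, 20.7, 21.3 and 22.3 in NaCl leaf and 50.3, 47.6 and 51.4 in root. No change in salt was detected for it (0.03 ± 0.11, adjusted p = 0.816; 95% interval of the log2 fold change -0.21 to 0.27), next to a copy that rose 2.71-fold, and by total library size it passed narrowly (0.28, adjusted p = 0.044). CqNL-6_022228 was low, with 1.06, 1.30 and 1.10 in leaf and 2.94, 4.52 and 3.12 in NaCl leaf, and rose 3.12-fold (1.64 ± 0.24, adjusted p = 0.000691), next to a copy that did not pass.

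The 3 genes whose pattern was most like that of CqNL-6_017786 over the 15 libraries were CqNL-6_048708 (Pearson r = 0.986 of log2(CPM + 0.5)), CqNL-6_011321 (0.973), both titled as hypothetical proteins, and its own partner CqNL-6_056988 (0.966), among 23346 genes of at least 5 CPM. For CqNL-6_054275 they were CqNL-6_008790 (0.984) and CqNL-6_032088 (0.977), again without an informative title, and CqNL-6_035008 (0.972), titled as a member of the ABC transporter C family. These correlations are descriptions over libraries that share 5 groups, and they do not measure the size of a change. CqNL-6_048708 had a mean of 32.5 CPM in leaf and 56.9 in NaCl leaf, against 108 and 2438 for CqNL-6_017786. CqNL-6_032088 had 24.9 and 47.9, against 72.9 and 1315 for CqNL-6_054275. Of the other members, the closest to CqNL-6_054275 were CqNL-6_028838 (r = 0.930, position 82) and CqNL-6_022231 (0.921, position 118), so many other genes lay closer. CqNL-6_021240 had -0.0385 with CqNL-6_054275 and -0.156 with CqNL-6_017786, the only PEAMT copy below 0 with either.

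Each methylation by PEAMT uses S-adenosylmethionine, which the methyl cycle regenerates. A list of methyl cycle genes by KEGG number (a list added after the table was seen) held 30 genes, of which 19 were tested in salt. Of these 19, 8 rose and 4 fell, against 24.0% and 22.8% of all genes tested. The median log2 fold change of the 19 was 0.19. The genes that rose had leaf levels of 39.0 to 305. The tested genes that were not called included CqNL-6_014905, an S-adenosylmethionine synthase, at 43.1 in leaf and 47.9 in NaCl leaf. CqNL-6_038501, an S-adenosylmethionine synthase, went from a mean level of 286 to 2516 (log2 fold change 3.18 ± 0.26, adjusted p = 5.47e-05), and CqNL-6_015507, another, from 305 to 1389.8 (2.23 ± 0.21, adjusted p = 9.03e-05). The methionine synthases CqNL-6_012001 (2.27 ± 0.17, adjusted p = 4.67e-05) and CqNL-6_055380 (2.54 ± 0.21, adjusted p = 5.74e-05), which rebuild methionine, rose as well. So did the adenosylhomocysteinases CqNL-6_016286 and CqNL-6_047387, which clear the product of methylation (1.76 and 1.60), and the methylenetetrahydrofolate reductases CqNL-6_038781 and CqNL-6_045082, which supply the methyl group (1.54 and 1.43). The 4 that fell were CqNL-6_051252 and CqNL-6_003109 (methionine synthases), CqNL-6_006344 (S-adenosylmethionine synthase) and CqNL-6_047907 (adenosylhomocysteinase), with leaf levels of 5.70 to 36.0. By total library size CqNL-6_006344 (adjusted p = 0.0671) and CqNL-6_047907 (adjusted p = 0.101) did not pass. By titles alone the list held 7 genes, of which 5 were tested, 2 rose (CqNL-6_038501 and CqNL-6_015507) and 2 fell, CqNL-6_051252 and the adenosine kinase CqNL-6_008515 (-1.41 ± 0.16, adjusted p = 0.00018).

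Genes that feed or drain choline were described next. As with the list above, the counts are read against the 24.0% of all genes that rose and the 22.8% that fell. Of 26 genes of choline and phosphocholine metabolism, 11 were tested, 4 rose and 1 fell (median 0.31). CqNL-6_033982, a glycerophosphodiester phosphodiesterase, an enzyme type that releases choline from glycerophosphocholine, rose from 6.82 to 21.8 (log2 fold change 1.72 ± 0.27, adjusted p = 0.000922), and CqNL-6_051165, a phospholipase D, which frees choline from phosphatidylcholine, from 1.27 to 2.36 (0.93 ± 0.19, adjusted p = 0.00314). The one that fell was CqNL-6_010328, a serine decarboxylase, the enzyme that makes ethanolamine (-1.02 ± 0.17, adjusted p = 0.00139), although its database title is marked putative. Of 3 transporter genes, 0 rose and 1 fell: CqNL-6_010789, titled betaine/proline transporter, went from 63.6 to 40.3 (-0.62 ± 0.12, adjusted p = 0.00289). All 4 genes titled ferredoxin fell, with a median of -0.97. The leading ones were CqNL-6_010809, from 5443 to 2625 (-1.02 ± 0.18, adjusted p = 0.00163), and CqNL-6_010047, from 3789 to 1451 (-1.35 ± 0.25, adjusted p = 0.00218). By total library size 2 of the 4 passed, and without the third leaf replicate 2 did. Leaving out 1 replicate also moved the count that fell to 2 for the choline genes (without the first or the second NaCl replicate) and to 2 for the transporters (without the first leaf or the third NaCl replicate). The leaf markers fell with them, and their part in the ferredoxin values was not tested.

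**Figure D5:**
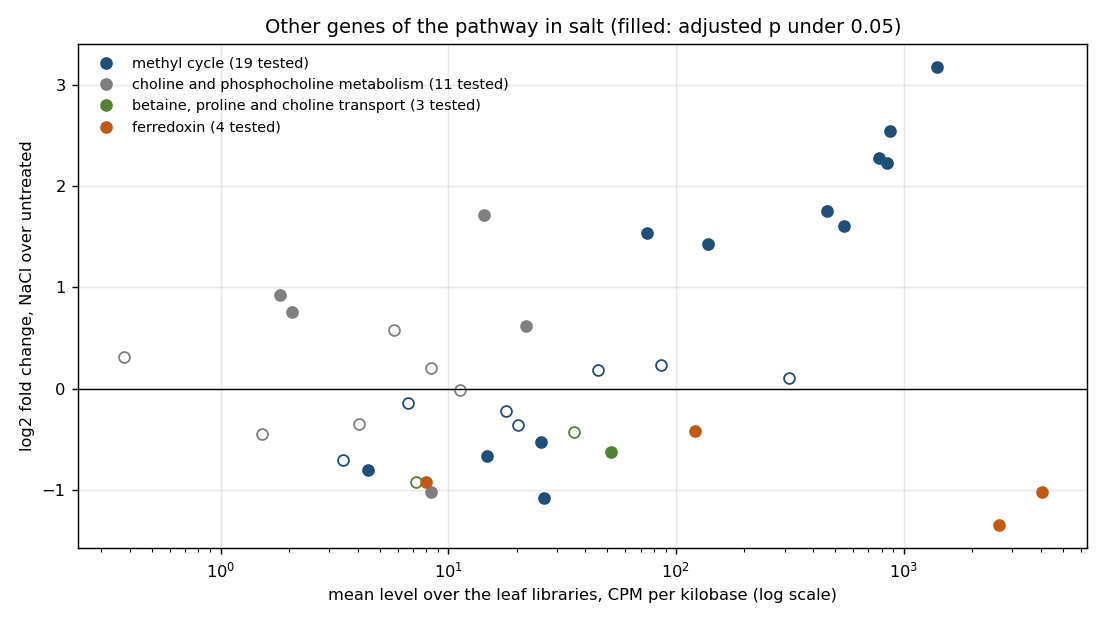
Log2 fold change in NaCl leaf over leaf (y axis) of the tested genes of 4 lists around the pathway, against their mean level over the 6 leaf libraries (x axis, CPM per kilobase, log scale); each point is a gene, filled where it passed the test. The methyl cycle genes that rose lie at the right, above 1 on the y axis, and the 4 ferredoxin genes lie below 0.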

How the data were processed

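RNA-seq of 15 NL-6 quinoa libraries in 5 groups was re-analysed from the deposited gene table. The authors filtered the reads, aligned them with HISAT2 (2.1.0 by the submitters' processing notes) on the genome of NL-6 and counted hits per gene with HTSeq. The deposited counts are whole numbers and were not normalised. The authors also derived FPKM from the counts and the deposited gene length, and within a library these FPKM values are the levels used here times a constant, so that they give the same copy shares and test nothing about them. The sources used here give neither the strand setting nor the handling of multiple matches.

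Counts were filtered with filterByExpr, scaled by TMM and tested with edgeR 4.0.16 (quasi-likelihood test, Benjamini-Hochberg adjustment over all genes tested, R 4.3.3). Salt was fitted on 6 leaf libraries, tissues on 12 untreated libraries, and NaCl leaf against the tissues on all 15. Errors after log2 fold changes are standard errors (the change divided by the square root of F), and 95% intervals use the degrees of freedom of that test. Copy shares were tested with SciPy 1.17.1. Alternatives were DESeq2 1.42.0, upper quartile scaling, total library size, no filter, all 15 libraries, no minimum fold, a replicate block and each replicate left out. Leaving out replicates in the fit of all 15 libraries, and the methyl cycle list by KEGG number, were chosen after seeing the data. The fits were also run on simulated data drawn from a common mean profile, which cannot check the scaling between tissues.

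Named were all members, the 3 genes most like each of CqNL-6_017786 and CqNL-6_054275, and the 2 genes per list and direction with the smallest p. The other methyl cycle genes that changed were named after their values were seen. The members and lists were chosen with earlier results of these data known. No replicate pair was identical. The methods of the study call the replicates independent, without saying whether they were grown apart, so p-values measure the spread between these pools. The reference table describes another quinoa assembly and 0 members matched it, so no sequence of the NL-6 genome was used here.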

Additional observations from a re-analysis of the deposited data

How the results depend on the processing

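For salt, the count of members that rose stayed between 8 and 9 and of those that fell at 0 under all alternatives run. With no minimum fold, 1 member each was highest in leaf, stamen and pistil, and by total library size 3 were highest in pistil and 3 in root. These counts of highest members have no share of all genes beside them. Of the lists in salt, the genes that fell numbered 2 for the methyl cycle and 2 for ferredoxin by total library size, 2 for the choline genes with all 15 libraries in 1 fit, and 2 for the transporters with DESeq2 and with all 15 libraries. The replicate numbers did not pair the samples (no correlation of same-numbered deviations passed 0.1), and with the replicate number as a block 8 members rose, 0 fell and 2 were highest in root.

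Scaling by total library size turned the sign of these log2 fold changes, for which the cause was not tested. For NaCl leaf over root they became -0.35 for CqNL-6_005716 and -0.39 for CqNL-6_021240, over stamen 0.70 for CqNL-6_021240 and 0.36 for CqNL-6_035439, and over pistil -0.37 for CqNL-6_019436. For leaf over root they became -0.60 for CqNL-6_019436 and -0.66 for CqNL-6_054275, for leaf over stamen 0.0796 for CqNL-6_035439, and for leaf over pistil -0.0704 for CqNL-6_021240 and -0.90 for CqNL-6_028838. For root over stamen they became 1.09 for CqNL-6_021240, 1.16 for CqNL-6_035439 and 1.31 for CqNL-6_056988, and for stamen over pistil -0.00288 for CqNL-6_005029. Upper quartile scaling gave -0.0088 for CqNL-6_005715 and -0.0157 for CqNL-6_035439 in salt, -0.0565 for CqNL-6_054275 in leaf over root and -0.0697 for CqNL-6_028838 in leaf over pistil, and the fit of all 15 libraries -0.0015 for CqNL-6_035439 in salt.

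With each replicate left out, these values spanned 0. In salt they were -0.0113 to 0.0518 for CqNL-6_005715 and -0.15 to 0.24 for CqNL-6_035439. For NaCl leaf over root they were -0.20 to 0.24 for CqNL-6_005716 and -0.0248 to 0.11 for CqNL-6_021240, for leaf over root -0.0632 to 0.16 for CqNL-6_054275, for leaf over pistil -0.31 to 0.13 and for root over stamen -0.32 to 0.43 for CqNL-6_056988. The salt shift in the share of CqNL-6_056988 was -2.74 to 0.58 percentage points. The counts of genes that fell in salt were 1 to 2 for the choline genes, 1 to 2 for the transporters and 2 to 4 for ferredoxin. Low counts limit CqNL-6_035439 throughout and the CMO copies in stamen.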
